A study of Mus musculus with 6 samples.

Results

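The genes described here are 42 genes of dermal fibroblasts and of the extracellular matrix that these cells lay down in skin. They were chosen by name, and each was read from its brightest probe set on the array, by mean log2 signal over the 6 arrays. Of the 42 genes 40 were measured, among 11387 genes in all. Fbn1 (fibrillin-1) had no probe set that could be used, and Loxl2 (a lysyl oxidase) shared its probe sets with the gene model Gm21451, so neither has a value. All 40 measured members passed the filter on low signal, which was set over both genotypes together.

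Back skin was taken at e18.5, shortly before birth, from 3 Get1 +/+ and 3 Get1 -/- mice, and total RNA of each mouse was hybridised to 1 oligonucleotide array. Get1 in the labels is the gene now named Grhl3, which encodes a grainyhead-like transcription factor of surface epithelia (the symbol Get1 has since passed to another gene). The labels name no strain, no treatment and no part of the gene that was deleted, and the -/- genotype is not described as limited to any cell type. Nothing in the labels says whether the mice shared a litter. Values are MAS5 signals in arbitrary units, with the same trimmed mean on every array. The brightness of different probe sets cannot be compared, so each gene, and each sum over marker genes, is compared only with itself across mice.

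The dermis gets its strength from fibrils of type I and type III collagen, with type V collagen in the fibril core and type VI collagen, decorin, lumican and related proteins on and around the fibrils. Elastic fibres consist of an elastin core on a scaffold of fibrillin microfibrils, with fibulins and microfibril-associated proteins helping to assemble them. Fibroblasts secrete most of this matrix, and lysyl oxidases crosslink both collagen and elastin. Grhl3 is known from the epidermis, so the comparison asks whether its loss goes together with a difference in the underlying dermal matrix at the RNA level.

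Of the 40 measured members 0 passed an adjusted p under 0.05 between genotypes (limma, Benjamini-Hochberg over all 11387 genes), where 5 of all genes did (0.0439%). At an unadjusted p under 0.05 there was 1 member (Ogn), or 2.5%, against 8.18% of all genes. Lower means in Get1 -/- skin were found for 21 members and higher means for 19, against 48.7% of all genes with a lower mean. The median log2 difference of the members was -0.026, beside 0.0076 over all genes. For 35 members (87.5%) the difference was under 0.25 in size on the log2 scale, as it was for 68.6% of all genes. For 26 members the 95% interval lay wholly between -0.5 and 0.5, a share of 65.0% against 30.5% of all genes. These shares describe the members and were not tested. Nor were they matched for signal level. Most members lay far above the signal filter, and the fit lets the SD depend on signal, so interval widths are not like for like. In whole skin, fewer cells of a type and less RNA per cell cannot be told apart.

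**Figure D1:**
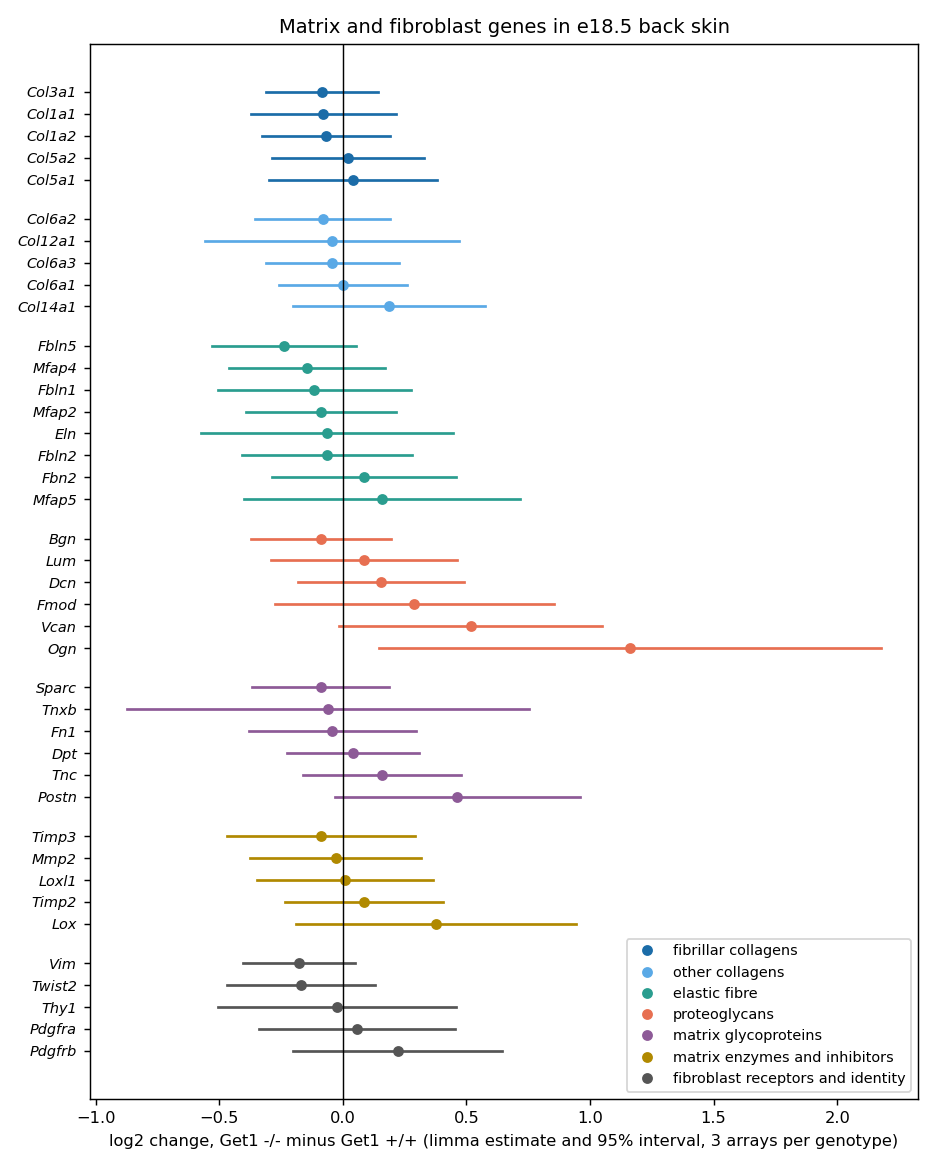
Log2 difference between Get1 -/- and Get1 +/+ skin (horizontal axis) for the 40 measured members, grouped and coloured by role. Points are limma estimates and lines their 95% intervals from 3 arrays per genotype. Of the 40 intervals only that of Ogn (0.15 to 2.18) does not reach 0, and its adjusted p was 0.586.

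The check of the genotype came first. The probe set of Grhl3 read 478, 934 and 670 in Get1 +/+ skin and 246, 413 and 380 in Get1 -/- skin. The groups did not overlap, with a log2 difference of -0.98 ± 0.28 (SE) and an adjusted p of 0.497 (limma). Without knowledge of the deleted part, a probe set outside it checks nothing about the labels. For the tissue, 10 of 10 markers of fibroblasts (all are members) and 9 of 10 of keratinocytes were measured. Markers of skeletal muscle (10 of 10), endothelium (8 of 8) and macrophages (8 of 8) were measured as well. Being measured means only a signal above the filter, so these counts do not test the label of the tissue. Among cartilage and tendon markers 7 of 10 lay below the signal filter, among them Col2a1, Acan, Comp and Scx. The 3 above it were Col9a1 (0.63 ± 0.32), Col11a1 (0.37 ± 0.21) and Tnmd (-0.28 ± 0.17), of which 0 passed the threshold. Tnmd read lower in every Get1 -/- mouse.

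The fibrillar collagens gave the tightest bounds of any role. Type I collagen, the main fibril protein of skin, is built from the chains of Col1a1 and Col1a2, and type III collagen from Col3a1. Col3a1 read 39825, 38784 and 36631 in Get1 +/+ mice and 35322, 33292 and 40380 in Get1 -/- mice. The highest of all 6 values was a Get1 -/- mouse and so was the lowest, so the genotypes overlapped fully. The log2 difference was -0.08 ± 0.10 (SE, adjusted p = 0.866), from 38414 ± 1629 to 36331 ± 3650 (SD, n = 3 each). Col1a1 read 31868, 25804 and 26738 in Get1 +/+ and 26584, 23083 and 30454 in Get1 -/- skin. Here too replicate 1 of Get1 +/+ and replicate 3 of Get1 -/- were the high ones, and the difference was -0.08 ± 0.13 (adjusted p = 0.913).

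Col1a2 (-0.07 ± 0.12) and the type V chains Col5a1 (0.04 ± 0.15) and Col5a2 (0.02 ± 0.14), which help set fibril width, gave differences as small. For these 5 fibrillar collagens the widest bound of any 95% interval was 0.38 on the log2 scale, a 1.30-fold difference, so larger differences in either direction lie outside the intervals of these probe sets. This holds for the brightest probe set of each gene. Another kept probe set of Col5a2 differed by 0.32 ± 0.17 (adjusted p = 0.743 over probe sets) and a dim one of Col1a2 by 0.70 ± 0.26 (adjusted p = 0.737), both beyond what that bound covers. Col3a1 was the brightest probe set of the array on 2 of 6 arrays, and the highest value of any probe set was 40957. Compression of signals this close to the top of the scale was not tested.

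The other collagens bind to fibrils or form networks beside them. Type VI collagen makes beaded filaments around cells. Its 3 chains differed by 0.00 ± 0.11 (Col6a1), -0.08 ± 0.12 (Col6a2) and -0.04 ± 0.12 (Col6a3). Col6a2 read 17847, 17372 and 16090 in Get1 +/+ and 16151, 14184 and 18417 in Get1 -/- mice, which overlap. Col14a1 and Col12a1 encode collagens that sit on fibril surfaces. Col14a1 read 5813, 4942 and 4276 in Get1 +/+ skin and 4616, 5988 and 6567 in Get1 -/- skin. The highest 2 values were Get1 -/- mice, but replicate 1 of Get1 -/- lay among the Get1 +/+ values, and the difference was 0.19 ± 0.17 (adjusted p = 0.812). Col12a1 differed by -0.04 ± 0.23, with the highest and the lowest value both in Get1 +/+ mice (3825 and 2199).

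Genes of the elastic fibre had a median log2 difference of -0.08, with 6 of 8 measured members lower and 0 past the threshold. Fbln5, a fibulin that brings elastin and lysyl oxidases to the microfibrils, read 2004, 2156 and 2146 in Get1 +/+ and 1758, 1807 and 1780 in Get1 -/- skin. All Get1 -/- values lay below all Get1 +/+ values, and mice of the same genotype differed little. The difference was -0.24 ± 0.13 (0.848-fold), with a 95% interval from -0.53 to 0.05 and an adjusted p of 0.658. The SD of Fbln5 within genotypes was 0.0441 on the log2 scale, smaller than in almost all genes (percentile 0.386). The limma model moves such a small SD towards that of other genes, which widens the interval.

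Mfap4, a microfibril-associated glycoprotein, read 4866, 4411 and 5406 in Get1 +/+ and 4576, 3902 and 4799 in Get1 -/- mice. The groups overlapped, and the difference was -0.15 ± 0.14 (adjusted p = 0.829). Elastin itself (Eln) differed by -0.07 ± 0.23, and its 3 Get1 +/+ mice alone spanned 3441 to 6764. That span was wider than the range of all Get1 -/- values (4073 to 5148). The fibulins Fbln1 (-0.11 ± 0.17) and Fbln2 (-0.06 ± 0.15), fibrillin-2 (Fbn2, 0.08 ± 0.17) and the microfibril genes Mfap2 (-0.09 ± 0.14) and Mfap5 (0.16 ± 0.25) all had overlapping genotypes.

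Proteoglycans held the largest difference, in a gene that also varied more between mice of the same genotype than any other member. Ogn encodes osteoglycin (mimecan), a small leucine-rich proteoglycan that binds collagen fibrils. It read 3180, 1001 and 790 in Get1 +/+ skin and 2304, 3875 and 3156 in Get1 -/- skin. Replicates 2 and 3 of Get1 +/+ lay far below the other 4 mice, while replicate 1 of Get1 +/+ lay within the Get1 -/- range. The mean was 1657 ± 1323 in Get1 +/+ and 3111 ± 786 in Get1 -/- (SD, n = 3 each), a log2 difference of 1.16 ± 0.45 or 2.24-fold (95% interval 1.11 to 4.52), with an adjusted p of 0.586. Its SD within genotypes, 0.806 on the log2 scale, lay at the 98.9th percentile of all genes.

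The Ogn result turned on single mice. Without Get1 +/+ replicate 1 the difference was 1.77 and passed the threshold (adjusted p = 0.0276, limma), in a fit where 122 of 11387 genes (1.07%) passed, 98 of them with a higher mean (0.861%). Without Get1 +/+ replicate 3 it was 0.77 (adjusted p = 0.835). Over all alternatives with a test the adjusted p ran from 0.0276 to 0.975. The other kept Ogn probe set gave the same picture, with 2773, 1027 and 592 in Get1 +/+ and 2350, 3607 and 2892 in Get1 -/- skin and a difference of 1.29 ± 0.47 (adjusted p = 0.737 over 22519 probe sets, of which 0.0266% passed).

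Versican (Vcan), a large proteoglycan that binds hyaluronan in loose embryonic matrix, followed the same order of mice. It read 5713, 3639 and 2848 in Get1 +/+ and 4842, 6360 and 5634 in Get1 -/- skin. Again replicates 2 and 3 of Get1 +/+ were lowest and replicate 1 lay within the Get1 -/- range. The difference was 0.52 ± 0.24 (adjusted p = 0.608), and its other kept probe sets gave 0.29 ± 0.35 and 0.54 ± 0.33. Decorin (Dcn, 0.15 ± 0.15) and lumican (Lum, 0.09 ± 0.17), the leucine-rich proteoglycans that regulate fibril spacing, were lowest in replicate 3 of Get1 +/+ as well, at 13256 and 10149. Biglycan (Bgn, -0.09 ± 0.13) and fibromodulin (Fmod, 0.29 ± 0.25) were not lowest in that mouse.

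Among the matrix glycoproteins and enzymes, Postn and Lox shared with Ogn the 2 lowest mice, though not the order of the other mice. Periostin (Postn), a matricellular protein that helps to crosslink collagen, read 19093, 16797 and 9769 in Get1 +/+ and 18391, 20650 and 21638 in Get1 -/- skin. Replicate 3 of Get1 +/+ stood apart at the low end, and replicate 1 overlapped the Get1 -/- mice. The difference was 0.46 ± 0.22 (adjusted p = 0.618). Lox, the lysyl oxidase that starts the crosslinking of collagen and elastin, read 7370, 4227 and 3538 in Get1 +/+ and 5246, 6735 and 6831 in Get1 -/- skin. Here the highest value of all belonged to a Get1 +/+ mouse, and the difference was 0.38 ± 0.25 (adjusted p = 0.733), or 0.45 ± 0.28 with its other kept probe set.

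Promoter sequences are shown for Ogn, Vcan and Postn, whose signals were lowest in the same Get1 +/+ mice, and for Col1a2, a fibrillar collagen that stayed close in all mice. They come from RefSeq on build GRCm38.p6 and span 250 bases before to 50 after the start of the gene, written 5′ to 3′ on the strand of the gene. Capitals mark TATAAA, the core of a TATA box, and CCAAT, the core of a CCAAT box, on either strand, so that CCAAT on the other strand shows as ATTGG. The windows are chr13:49607765-49608064 (plus strand), chr13:89742463-89742762 (minus strand), chr3:54360857-54361156 (plus strand) and chr6:4505368-4505667 (plus strand). For Postn the second of its windows is shown.
Ogn: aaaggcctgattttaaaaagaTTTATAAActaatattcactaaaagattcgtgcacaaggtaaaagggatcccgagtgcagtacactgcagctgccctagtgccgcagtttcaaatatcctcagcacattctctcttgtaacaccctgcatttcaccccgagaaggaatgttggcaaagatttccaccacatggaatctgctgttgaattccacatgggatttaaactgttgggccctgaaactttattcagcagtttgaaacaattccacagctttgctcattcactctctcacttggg
Vcan: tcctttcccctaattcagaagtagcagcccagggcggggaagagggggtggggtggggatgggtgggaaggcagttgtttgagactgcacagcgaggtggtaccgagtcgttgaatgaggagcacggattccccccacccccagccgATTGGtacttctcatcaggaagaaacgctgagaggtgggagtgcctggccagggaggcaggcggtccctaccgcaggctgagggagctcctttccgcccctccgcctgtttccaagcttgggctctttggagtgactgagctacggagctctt
Postn: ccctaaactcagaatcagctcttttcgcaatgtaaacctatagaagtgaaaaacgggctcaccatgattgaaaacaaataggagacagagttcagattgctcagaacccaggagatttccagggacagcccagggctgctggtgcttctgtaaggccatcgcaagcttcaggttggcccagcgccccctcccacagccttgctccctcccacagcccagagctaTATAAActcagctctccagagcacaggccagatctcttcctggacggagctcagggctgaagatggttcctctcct
Col1a2: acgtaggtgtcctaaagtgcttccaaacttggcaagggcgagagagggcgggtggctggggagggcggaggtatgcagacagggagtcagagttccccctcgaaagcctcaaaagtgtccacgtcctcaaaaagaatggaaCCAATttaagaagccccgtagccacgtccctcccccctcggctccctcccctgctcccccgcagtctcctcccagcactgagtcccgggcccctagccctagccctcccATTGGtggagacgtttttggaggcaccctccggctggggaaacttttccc
Of the 40 measured members 24 had such a window. The TATAAA motif was found on either strand in those of 6 members (Ogn, Postn, Col3a1, Dpt, Tnc and Vim) and in 13.6% of all 32851 windows. A member counts here if any of its windows matches, whereas shares over all are per window, so these are unlike units. In Ogn the matches on both strands overlap and start at bases 22 and 24 of the window. In Postn the match starts at base 225. CCAAT was found in 9 members, among them Vcan and Col1a2 as printed and Postn in its other window, which is not shown, and in 37.4% of all windows. AACCGGTT, the palindromic sequence that grainyhead-like factors are known to bind, was in 0 of the 24 members and in 0.146% of all windows. These are matches of letters in a short window and describe no binding. AACCGGTT is so rare over all windows that a list of 24 genes would seldom hold it. Its count of 0 is therefore not particular to these members.

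The arrays were also split by the beta-actin control probe set. Its signal was 18407 to 19858 on Get1 +/+ replicates 1 and 2 and Get1 -/- replicate 1, and 10118 to 13060 on the other 3 arrays. On the first set Ogn differed by 0.37, Vcan by 0.087, Postn by 0.038 and Lox by -0.089 on the log2 scale. On the second set they differed by 2.15, 1.07, 1.11 and 0.94. The second set holds only replicate 3 of Get1 +/+ and the first only replicate 1 of Get1 -/-, so each value rests on 1 mouse of a genotype. Replicate 3 of Get1 +/+ was the lowest mouse for each of these genes. The larger values on the second set therefore restate that low mouse, and the split cannot tell it apart from the control signal. With the 2 sets as a block in the fit, 0 members passed.

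**Figure D2:**
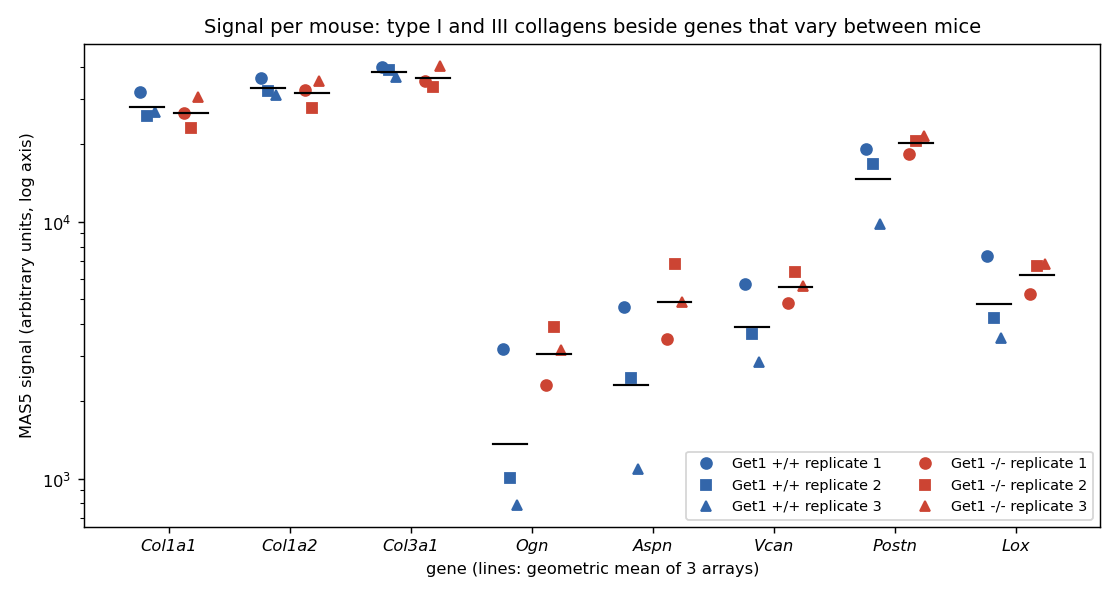
MAS5 signal (log axis, arbitrary units) of each of the 6 mice for the type I and type III collagen genes and for Ogn, Aspn, Vcan, Postn and Lox. Blue points are Get1 +/+ and red points Get1 -/- mice, the symbol gives the replicate, and lines are geometric means. The collagens stay close together in all 6 mice, whereas replicates 2 and 3 of Get1 +/+ are the lowest for each of the other 5 genes.

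Among the remaining glycoproteins, tenascin-C (Tnc), an anti-adhesive protein of developing and wounded tissue, read 948, 1087 and 1031 in Get1 +/+ and 1178, 1118 and 1121 in Get1 -/- skin. The genotypes did not overlap, with a difference of 0.16 ± 0.14 (adjusted p = 0.807). The other kept Tnc probe set went the opposite way, by -1.29 ± 0.60, and read 1250 in replicate 2 of Get1 +/+ against 131 to 313 in the other 5 mice. Fibronectin (Fn1, -0.04 ± 0.15), Sparc (-0.09 ± 0.12), a collagen-binding matricellular protein, and dermatopontin (Dpt, 0.04 ± 0.12) had overlapping genotypes. Tenascin-X (Tnxb), whose loss weakens skin collagen, differed by -0.06 ± 0.36 and ranged from 666 to 1813 within Get1 -/- mice alone.

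Of the enzymes and inhibitors, the gelatinase Mmp2 (-0.03 ± 0.15) and the lysyl oxidase Loxl1 (0.01 ± 0.16) differed little. Timp2, an inhibitor of metalloproteinases, read 4000, 3628 and 3585 in Get1 +/+ and 3453, 3990 and 4522 in Get1 -/- skin. The groups overlapped, and the difference was 0.09 ± 0.14 (adjusted p = 0.911). Timp3, an inhibitor that stays bound to the matrix, differed by -0.09 ± 0.17 in its brightest probe set. Its dimmer kept probe sets gave -0.16 ± 0.21, -0.41 ± 0.20 and -0.51 ± 0.23, and in the last pair all Get1 -/- mice read lower, with an adjusted p of at least 0.737 for each (limma, over probe sets).

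Fibroblast receptors and identity genes did not separate as a group. Vimentin (Vim), the intermediate filament of mesenchymal cells, read 25195, 27031 and 24092 in Get1 +/+ and 23324, 20793 and 23470 in Get1 -/- skin. All Get1 -/- values lay below all Get1 +/+ values, by -0.18 ± 0.10 (0.885-fold, adjusted p = 0.675), and the other kept Vim probe sets overlapped (-0.08 and -0.07). Twist2, a transcription factor of dermal fibroblasts, read 5457, 5531 and 4883 in Get1 +/+ and 4583, 4288 and 5285 in Get1 -/- skin. Replicate 3 of Get1 -/- overlapped the Get1 +/+ mice, and the difference was -0.17 ± 0.13 (adjusted p = 0.782). The PDGF receptors Pdgfra (0.06 ± 0.18) and Pdgfrb (0.22 ± 0.19), which mark fibroblasts and mural cells, and the surface protein Thy1 (-0.02 ± 0.21) overlapped too.

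Genotypes did not overlap in 3 of the 40 members (Fbln5 and Vim lower, Tnc higher), which is 7.5% against 12% of all genes. In each direction the share over all genes was 6.78% lower and 5.2% higher.

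Most members followed single mice. Replicate 3 of Get1 -/- had the highest value of all 6 mice for 16 of 40 members and the lowest for 0, and replicate 1 of Get1 +/+ the highest for 13. Over all genes those mice were highest for 15.3% and 9.68%. Replicate 2 of Get1 -/- was lowest for 18 members, against 16.6% of all genes. One mouse of each genotype thus read high across the matrix genes, with median deviations of 0.15 (Get1 +/+ replicate 1) and 0.16 (Get1 -/- replicate 3) from the mean of the 6 arrays. The median deviations of the other 4 mice lay between -0.098 and -0.050. Replicate 3 of Get1 +/+, the lowest mouse for Ogn, Vcan, Postn and Lox, was lowest for 12 members, against 18.7% of all genes. Col5a1, Col5a2 and Col14a1 were among those 12. The same mouse was highest for 4 members but for 29.5% of all genes, the largest such share of the 6 arrays. The median SD within genotypes was 0.182 for fibrillar collagens and 0.300 for proteoglycans, against 0.202 for all members and 0.230 for all genes.

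**Figure D3:**
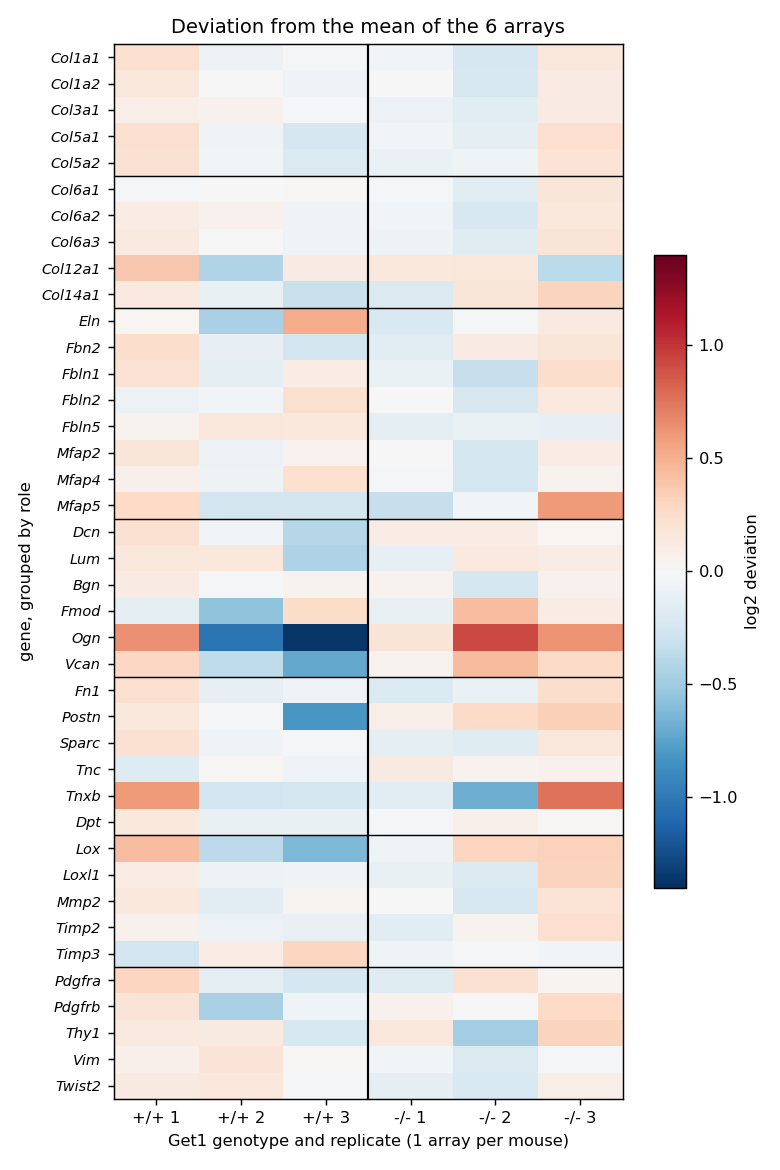
Log2 deviation of each member (rows, grouped by role) from its mean over the 6 arrays, for each mouse (columns, Get1 +/+ left of the line and Get1 -/- right of it). Columns for Get1 +/+ replicate 1 and Get1 -/- replicate 3 are mostly red (higher), that for Get1 -/- replicate 2 is blue for most collagens, and Ogn, Vcan, Postn and Lox are blue in Get1 +/+ replicate 3.

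Probe sets of 1 gene mostly gave small differences, with a few that disagreed. Kept probe sets numbered 80 for the 40 members, and the smallest adjusted p among them was 0.737. Besides Tnc, a dim probe set of Col1a2 stood apart. It read 714, 353 and 506 in Get1 +/+ and 834, 719 and 912 in Get1 -/- skin, a difference of 0.70 ± 0.26, while the bright ones differed by -0.07 and 0.06. The dimmer kept Pdgfra probe sets differed by -0.40 ± 0.32 and -0.35 ± 0.37, against 0.06 in the brightest. When a gene's kept probe sets were averaged, Col1a2 came to 0.23, Pdgfra to -0.23, Timp2 to -0.052 and Tnc to -0.56, each opposite in sign to the brightest probe set and each past no threshold.

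**Figure D4:**
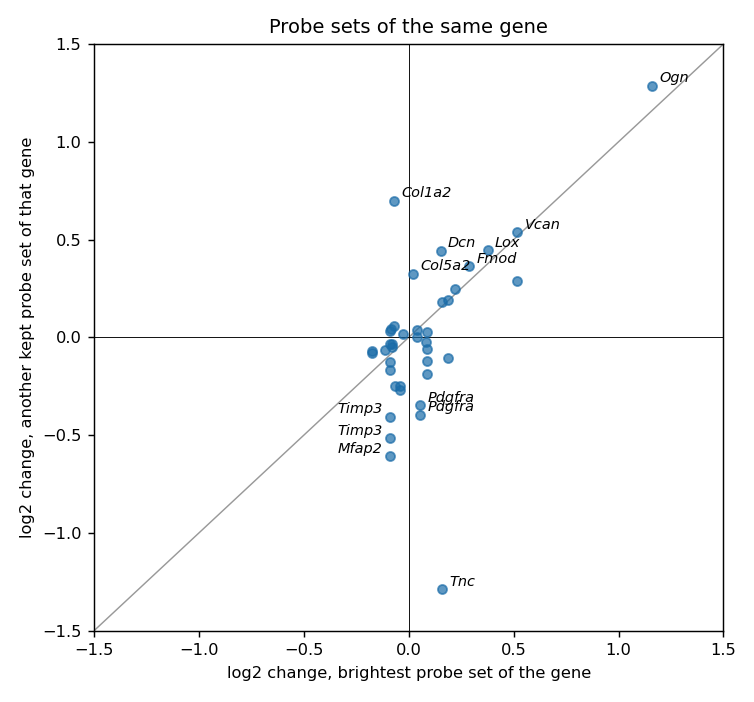
Log2 difference of the brightest probe set (horizontal axis) against that of every other kept probe set of the same member (vertical axis), with the diagonal as the line of equal values. Both Ogn probe sets lie high (1.16 and 1.29), whereas the probe sets of Tnc (0.16 and -1.29) and the dim one of Col1a2 (0.70) lie far from the diagonal.

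Related matrix genes outside the 42 were read from lists chosen by function, and 0 of their genes passed the threshold in either direction. Ogn belongs to a run of leucine-rich proteoglycan genes that the RefSeq gene table places in the order Ecm2, Aspn, Omd and Ogn. Asporin (Aspn) read 4661, 2455 and 1089 in Get1 +/+ and 3481, 6868 and 4846 in Get1 -/- skin, with the same pair of Get1 +/+ mice lowest as in Ogn. Its difference was 1.07 ± 0.46 (adjusted p = 0.601). Osteomodulin (Omd) lay below the signal filter and read 43.2 to 44.0 in Get1 +/+ and at least 59.0 in each Get1 -/- mouse. Ecm2 was dimmer still (7.84 to 55.6) with overlapping genotypes. Omd and Ecm2 were picked after their values were seen.

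In that list of other proteoglycans and hyaluronan genes 7 of 11 tested genes had higher means (median 0.12, or -0.017 with the mean of kept probe sets), among them the hyaluronan synthase Has2 (0.60 ± 0.35) and Prelp (0.21 ± 0.16). Genes that fold and process procollagen had a median of 0.048 over 16 tested genes. The smallest p there was that of lysyl hydroxylase Plod2 (0.35 ± 0.20), followed by the collagen export factor Mia3 (0.30 ± 0.20) and the prolyl hydroxylase subunit P4ha2 (0.18 ± 0.16). Other collagens of skin and fascia had a median of 0.023 over 12 genes. Among them Col17a1, a hemidesmosome collagen of basal keratinocytes, differed by -0.29 ± 0.15 (adjusted p = 0.636), Col5a3 by 0.27 ± 0.29 and Col18a1 by -0.11 ± 0.15. Other elastic fibre genes had a median of 0.050 over 11 genes, with Loxl4 at -0.24 ± 0.20, Ltbp2 at 0.25 ± 0.24 and Adamts10 at 0.19 ± 0.20.

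In 13 of 18 other matricellular genes the mean was lower (median -0.066). Of the 3 with the smallest p, Thbs1 and Ccn2 were each high in 1 mouse. Thbs1 (thrombospondin-1) read 2570 and the growth factor gene Ccn2 1235 in replicate 2 of Get1 +/+, against at most 841 and 562 in the other 5 mice, with differences of -0.70 ± 0.42 and -0.55 ± 0.36. Ecm1 differed by -0.62 ± 0.29. Among matrix proteases and inhibitors (13 genes, median 0.00015) the smallest p were those of the fibroblast protease Fap (0.44 ± 0.23), Adamts9 (0.24 ± 0.16) and Timp1 (0.24 ± 0.21).

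TGF-beta is a main inducer of collagen synthesis in fibroblasts. Its ligands, receptors and mediators had higher means in 11 of 15 genes, with a median of 0.11. The ligand gene Tgfb2 read 836, 593 and 680 in Get1 +/+ and 990, 828 and 962 in Get1 -/- skin. Replicate 1 of Get1 +/+ reached just above the lowest Get1 -/- mouse, and the difference was 0.41 ± 0.18 (adjusted p = 0.602). The receptor Tgfbr1 (0.24 ± 0.17) and Smad4 (-0.14 ± 0.12) followed by p. Matrix receptors had higher means in 9 of 12 genes, with a median of 0.11, led by the integrins Itgb3 (0.54 ± 0.27) and Itga8 (0.24 ± 0.16) and the collagen receptor Ddr2 (0.32 ± 0.26).

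Genes linked to dermal fibroblast lineages had a median of -0.074 over 21 genes. Lower means were found for 12 of them and higher means for 9. The 3 with the smallest p (Foxc1, Runx1 and Pdpn) read lower in every Get1 -/- mouse. Of the 21 genes no other did so, against 6.78% of all genes. Genes picked for a small p tend to separate, so these 3 alone cannot be set beside that share. Foxc1, a forkhead factor, read 233, 375 and 387 in Get1 +/+ and 151, 214 and 187 in Get1 -/- skin (-0.83 ± 0.26, adjusted p = 0.555). Pdpn (podoplanin) differed by -0.66 ± 0.26 and Runx1 by -0.60 ± 0.22. The next by p, Crabp1, a retinoic acid binding protein, went the other way (0.46 ± 0.19, adjusted p = 0.589). Of the 21 genes it alone read higher in every Get1 -/- mouse, against 5.2% of all genes. Foxc1, Runx1 and Pdpn are also known from epithelial or other cells, so in whole skin they do not mark fibroblasts alone.

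Whole skin holds several cell types besides fibroblasts. The summed signal of the 10 fibroblast markers ran from 139066 to 169258 in Get1 +/+ and from 140377 to 163261 in Get1 -/- skin, so the Get1 +/+ range enclosed that of Get1 -/-. Such a sum weighs bright probe sets most, here those of the type I and type III collagen genes, and all 10 markers are members, so it is no separate measure of fibroblast content. Keratinocyte markers were lower in 9 of 9 genes, with sums of 168805 to 173767 against 139918 to 163558, which do not overlap. This sum too weighs bright probe sets most. Of these genes only Lor had genotypes that did not overlap (mean 31574 against 22873). Krt5 and Krt14 each differed by -0.12 and Itga6 by -0.01, with overlap. Skeletal muscle markers were higher in 10 of 10 (sums of 92894 to 143974 against 111548 to 166942). Mural cell markers were higher in 8 of 8, endothelial markers in 7 of 8, macrophage markers in 7 of 8 and adipocyte markers in 5 of 6. Des is in both the muscle and the mural list. Over all genes 48.7% had a lower mean. Macrophage sums were 8910 to 12095 against 13527 to 14704, and endothelial sums 6261 to 6720 against 6829 to 7963. These sums weigh bright probe sets most as well. Taken singly, every endothelial marker had overlapping genotypes, and Tie1 was the lower one (-0.06 ± 0.21). Of the macrophage markers only Ptprc, C1qa and Adgre1 did not overlap, and Cd68 was the lower one (-0.25 ± 0.29). Mural sums (12325 to 17951 against 15688 to 21185) and adipocyte sums (29088 to 36627 against 31373 to 42396) overlapped. Of all these marker genes 0 passed the threshold, and their part in the values of the matrix genes was not tested.

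**Figure D5:**
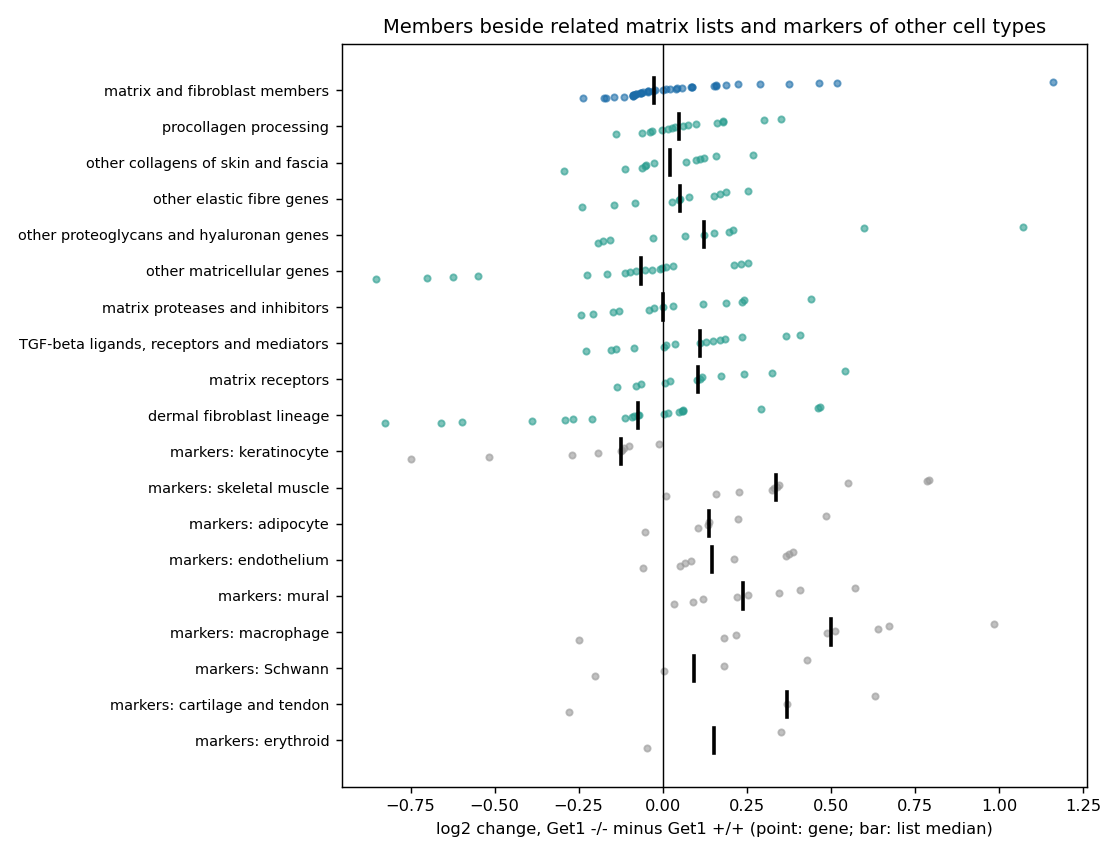
Log2 difference of single genes (points) and list medians (bars) for the 40 members in blue, for related matrix lists in green and for markers of other cell types in grey. The median of the members lies at -0.026, close to those of most matrix lists. The medians of skeletal muscle (0.34), cartilage and tendon (0.37, only 3 genes) and macrophage markers (0.50) lie furthest to the right. Those of mural (0.24), erythroid (0.15, only 2 genes), endothelial (0.15), adipocyte (0.14) and Schwann cell markers (0.094) also lie to the right of 0. That of keratinocyte markers (-0.12) lies to the left.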

How the data were processed

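Each of the 6 arrays was 1 mouse, 3 per genotype, grouped by the titles in the labels. The deposited values are linear signal intensities that the authors computed with MAS5, per the submitters' processing notes (version not given in the sources used here). Their 2% trimmed mean was 500.0 on every array, so no further scaling was applied. Values were turned into log2, 64 control probe sets were left out, and of the other 45037 probe sets the brighter 22519 by mean log2 (a signal of 137 or more) went on. Genes come from the platform annotation (probe sets naming 1 gene alone, the brightest per gene), which gave 11387. The test between genotypes was limma's (version 3.58.1, R 4.3.3: lmFit, then eBayes with trend, two-sided, Benjamini-Hochberg over all genes, threshold 0.05), a procedure tested on simulated data. In the simulated data each gene varied on its own, whereas many members here read high or low in the same mice. SE and 95% intervals are those of the model. P-values set the difference between genotypes against the spread between mice of 1 genotype, which the model moves towards that of other genes. With 1 array per mouse, spread between mice and between arrays cannot be told apart. With 3 mice per genotype, the number of arrays limits the precision.

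The members and lists were chosen with earlier results of these data known. Values on every array are given for the 2 members of each role with the smallest p and for those whose genotypes do not overlap, and the 3 genes with the smallest p are named per matrix list. Alternatives changed the normalization, the filter, the offset, the trend, array weights, the probe set rule, the replicate number or beta-actin set as a block, and left out each array in turn. Mice with the same number deviated together over the genes for 1 of 3 numbers (correlations of -0.0195, 0.361 and -0.0251), so the numbers were not treated as pairs.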

Additional observations from a re-analysis of the deposited data

How the results depend on the processing

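Among the members 0 passed under the 10 alternatives that kept all 6 arrays, and leaving out single arrays gave 0 to 1 (Ogn, without Get1 +/+ replicate 1). The count of all genes past the threshold was 5. It was 10 with median centring, 8 with array weights and 44 when replicate numbers entered as a block, where 0 members passed, and it ran from 3 to 122 with single arrays left out. Members with a lower mean numbered 21, against 11 with array weights and 11 to 26 with single arrays left out. The median of the members ran from -0.12 to 0.062 when single arrays were left out and from -0.032 to 0.068 under the other alternatives fitted on all arrays. Within the sets of arrays split by beta-actin it was -0.099 and 0.090. With the mean of kept probe sets Col1a2 (0.23), Pdgfra (-0.23), Timp2 (-0.052) and Tnc (-0.56) took the opposite sign. Most members lie so close to 0 that 31 of 40 changed sign under at least 1 of 18 alternatives. The 9 that did not include Ogn, Vcan and Postn (higher) and Fbln5, Vim, Twist2 and Mfap4 (lower).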
